A study of Homo sapiens with 6 samples.

Results

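The negative feedback genes of the ERK pathway were followed in UE7T-9 SHC4 and UE7T-9 Cont cells. The group was chosen by gene name, with earlier results of these data known. It holds 10 genes, and each of them matched 1 of the 28181 Ensembl identifiers in the files. It comprises the dual-specificity phosphatases DUSP4, DUSP5 and DUSP6, the Sproutys SPRY1, SPRY2 and SPRY4, the Sprouty-related proteins SPRED1 and SPRED2, and the ETS transcription factors ETV4 and ETV5. All 10 passed the filter for testing, a mean normalized count of at least 1 over the 6 libraries.

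ERK is the last kinase of a chain in which a growth factor receptor recruits adaptor proteins, switches on RAS and, through RAF and MEK, phosphorylates ERK. Active ERK induces genes that act back on the chain. DUSPs remove the phosphates from ERK, Sproutys hold back signaling between the receptor and RAF, and SPREDs bring the RAS inhibitor neurofibromin to the membrane. ETV4 and ETV5 do not inhibit the pathway but are transcription factors that rise with it, partly because ERK inactivates capicua, a repressor of their genes. Shc adaptors, the family of SHC4, link phosphorylated receptors to RAS, so these transcripts serve as a readout of ERK output. The phosphorylation of ERK itself was not analysed here.

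UE7T-9 is an established human mesenchymal stem cell line from bone marrow that carries introduced hTERT and papillomavirus E7 genes. The 3 UE7T-9 SHC4 samples came from cells infected with a lentivirus that expresses the coding region of SHC4 from a CMV promoter, followed by puromycin selection (genotype SHC4-OE in the labels). The 3 UE7T-9 Cont samples are labelled Nontarget with a WT genotype, while the study's methods describe a GFP lentivirus for the control cells. Both groups grew in DMEM. The design text speaks of clones and the titles of biological replicates, but neither says whether the libraries of a group came from separate infections or cultures, so p-values measure the spread between these samples.

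Recovered depth was 18144993 to 23922933 reads in UE7T-9 Cont and 20002676 to 27721397 reads in UE7T-9 SHC4. SHC4 itself had 56.5, 157 and 130 normalized counts in the controls, against 134870, 119166 and 155006 in UE7T-9 SHC4, as labelled. The summed level of 10 mesenchymal stem cell markers was 219067 to 639072 in the controls and 394910 to 581575 with SHC4, most of it from COL1A1 and COL1A2, and 9 of the 10 had a positive log2 fold change. Of these, PDGFRB was called higher by DESeq2 (adjusted p = 0.0171), as were 2.06% of the genes to which it gave an adjusted p. Without UE7T-9 Cont replicate 1, limma called PDGFRB higher (adjusted p = 0.000698, against 0.162 with it). It also called THY1 (adjusted p = 0.00167) and VCAM1 (0.0132) higher there, against 2.99% of all genes. The negative log2 fold change was that of NT5E (-0.36). The 5 blood markers found summed to 218 to 407 in the controls and 274 to 346 with SHC4, the 4 endothelial markers to 58.0 to 78.9 and 49.2 to 96.7, and the 3 epithelial markers to 14.8 to 25.3 and 6.66 to 32.5. No library had more than 6.82 normalized counts of PTPRC, the common leukocyte antigen, or 4.92 of EPCAM, an epithelial adhesion molecule. Other markers of these lists were higher. HLA-DRA stood at 72.8 to 262, CD14 at 52.7 to 88.3, CD34 at 39.6 to 52.7 and ITGAM at 12.8 to 42.5. Of the epithelial markers, CDH1 reached 17.6 and KRT14 14.1. HLA-DRA was called higher by limma without UE7T-9 Cont replicate 1 (adjusted p = 0.0259). Across genes, the log2 values of UE7T-9 Cont replicate 1 were closer to every UE7T-9 SHC4 library than to either other control. Pearson's r was 0.975, 0.969 and 0.968 with UE7T-9 SHC4 replicates 1, 2 and 3. With control replicates 2 and 3 it was 0.967 and 0.962. For each of the 10 feedback genes, the value without UE7T-9 Cont replicate 1 is therefore given as well. Over all genes, limma then called 690 higher and 621 lower, against 13 and 2 with all 6 libraries. That fit drops the control nearest to UE7T-9 SHC4, so its calls are not separate support for a difference.

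All 10 feedback genes had a lower mean log2 level in UE7T-9 SHC4 than in UE7T-9 Cont, against 50.3% of all genes tested, but none of them passed in both limma and DESeq2. The differences ranged from a log2 fold change of -1.34 for ETV4 to -0.094 for DUSP4, and the sign of DUSP4 depended on the method. The median log2 fold change of the 10 genes was -0.50, where the median over 23040 genes was -0.0040. Because the genes were chosen with earlier results of these data known, the shares over all genes describe the group and do not test it. Values here are normalized counts, that is, the reads of a gene divided by the size factor of its library, and log2 fold changes are differences of log2(normalized count + 1) from limma. In SPRY1, SPRY4, SPRED2, ETV4 and ETV5, all 3 UE7T-9 SHC4 libraries lay below all 3 controls (5 of 10 genes, against 10.2% of the genes tested), and none was above all controls in all 3 (9.13% of the genes tested). For these genes the exact permutation test gave a two-sided p of 0.1, the smallest that 3 libraries against 3 allow.

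After Benjamini-Hochberg adjustment over all genes, limma called none of the 10 genes at an adjusted p below 0.05 (0.0651% of all genes were called, 13 higher and 2 lower). At an unadjusted p below 0.05, 5 of the 10 genes were lower, namely DUSP5, SPRY1, SPRY4, SPRED2 and ETV4, against 6.96% of all genes, and none was higher (7.47%). DESeq2 on the recovered reads called DUSP5, SPRY4 and ETV4 lower, against 2.08% of the genes to which it gave an adjusted p, and none of the 10 higher (2.06%). The edgeR quasi-likelihood test on the same reads called 0 of the 10 (0.0694% of the genes it tested were called). In this bulk RNA, fewer cells that express a gene and less of its RNA per cell cannot be told apart.

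**Figure D1:**
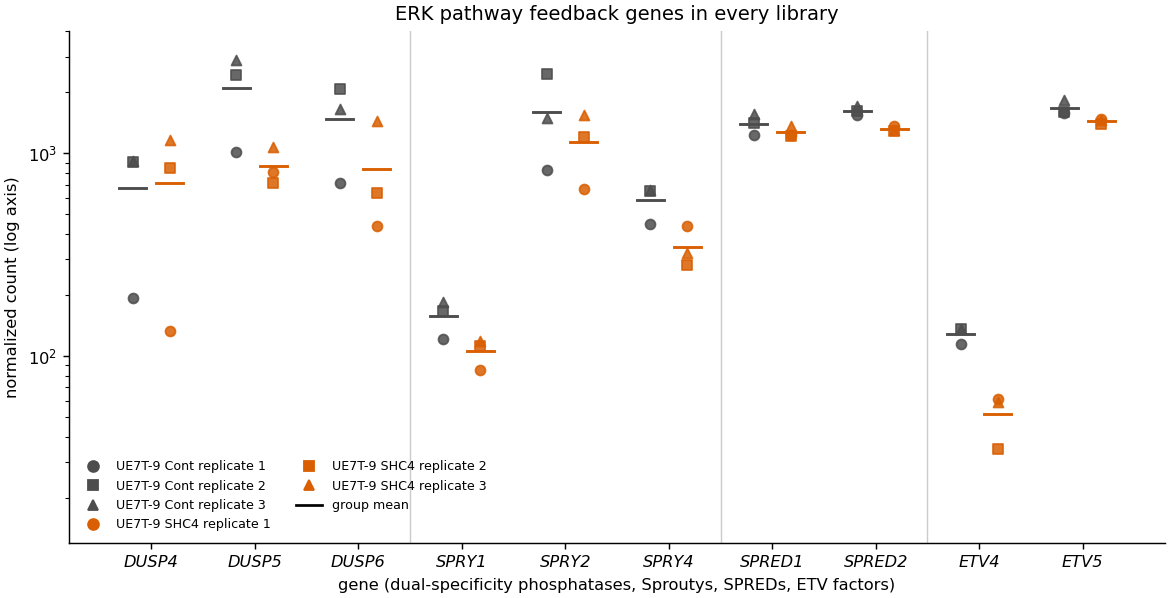
Normalized count (log axis) of each of the 10 feedback genes in every library, in UE7T-9 Cont (grey) and UE7T-9 SHC4 (orange), with the marker shape giving the replicate and the group mean as a bar. The groups separate for SPRY1, SPRY4, SPRED2, ETV4 and ETV5, and DUSP4 spreads from 134 to 1163 over the libraries.

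Of the phosphatases, DUSP5 was the lowest in UE7T-9 SHC4 relative to the controls, and DUSP4 did not differ between groups in a detectable way. DUSP5 is an inducible phosphatase of the nucleus that acts on ERK. It is ENSG00000138166 at chr10:110497838-110511544, plus strand (GENCODE 29, GRCh38, as for all genes here). Its normalized count was 1011, 2425 and 2874 in control replicates 1, 2 and 3, as against 810.3, 712 and 1076 in replicates 1, 2 and 3 of UE7T-9 SHC4 (the order used throughout). The groups overlapped only through UE7T-9 Cont replicate 1, which lay below UE7T-9 SHC4 replicate 3. The means were 2103 ± 973 and 866 ± 188 (SD, n = 3 each), so that UE7T-9 SHC4 held 41.2% of the control level. The limma log2 fold change was -1.17 (SE 0.35, 95% interval -1.95 to -0.39, adjusted p = 0.201). DESeq2 gave -1.28 (SE 0.34, adjusted p = 0.00957) and edgeR an adjusted p of 0.173. Without UE7T-9 Cont replicate 1 the limma value was -1.63 (SE 0.18, adjusted p = 0.0025), and DUSP5 was called. With any other library left out, its adjusted p ranged from 0.274 to 0.588.

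DUSP4 is an inducible phosphatase of the nucleus (ENSG00000120875, chr8:29333064-29350668, minus strand). It read 193, 908 and 915 in the controls, as against 134, 847 and 1163 with SHC4. Within each group, replicate 1 was far below the other libraries, and the highest library exceeded the lowest 4.74-fold in UE7T-9 Cont and 8.71-fold in UE7T-9 SHC4. The means, 672 ± 415 and 714 ± 527 (SD, n = 3 each), were higher in UE7T-9 SHC4, whereas the mean log2 level was lower by a log2 fold change of -0.094 (SE 0.81, adjusted p = 0.971 from limma). The 95% interval from -1.93 to 1.74 covers large changes in both directions. The sign depended on the libraries used, as the limma log2 fold change was -0.84 without UE7T-9 Cont replicate 1 and 0.87 without UE7T-9 SHC4 replicate 1.

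DUSP6, the cytoplasmic phosphatase that is specific for ERK (ENSG00000139318, chr12:89347232-89353271, minus strand), spread widely in both groups. Its normalized count was 716, 2072 and 1651 in the controls, as against 438, 635 and 1451 with SHC4. UE7T-9 SHC4 replicate 3 lay well inside the control range, and the other libraries of that group lay below every control. The means were 1480 ± 694 and 841 ± 537 (SD, n = 3 each), with a limma log2 fold change of -0.87 (SE 0.47, 95% interval -1.92 to 0.19, adjusted p = 0.435). It did not pass in DESeq2 either (adjusted p = 0.593). Single libraries moved the value. It was -1.32 without UE7T-9 Cont replicate 1 (limma adjusted p = 0.088) and -1.35 without UE7T-9 SHC4 replicate 3 (0.458), but -0.56 without UE7T-9 Cont replicate 2 (0.743) and -0.49 without UE7T-9 SHC4 replicate 1 (0.684).

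The promoter of DUSP6 carried a match to the octamer that capicua binds. Promoter sequences came from a RefSeq table (GRCh38.p14) that held start sites for 6 of the 10 genes, DUSP6, SPRY1, SPRY2, SPRY4, SPRED1 and SPRED2, with 10 start sites in all. The 250 bases before each start were searched on both strands for the capicua octamer (TGAATGAA, TGAATGGA, TCAATGAA or TCAATGGA), an ETS core (CCGGAA), an AP-1 site (TGANTCA), a CRE (TGACGTCA) and the CArG box of the serum response element. These motifs were chosen because capicua, ETS factors, AP-1 and serum response factor are known to act at ERK-responsive genes. The octamer was found before 1 of the 10 starts, against 3.18% of all 35116 promoters in the table. The ETS core was found before 2 starts, of SPRY1 and SPRY2, against 14.5% of all promoters. AP-1 sites (6.57% of all promoters), the CRE (1.65%) and the CArG box (1.16%) were before none of the 10. The 3 windows of 30 bases below are shown because they hold every match, 5′ to 3′ on the strand of the gene, with the match in capitals. A match describes these letters and does not show that a factor binds there.
DUSP6, chr12:89352507-89352536, minus strand, 16 bases before the start: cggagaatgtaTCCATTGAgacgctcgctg
SPRY1, second start, chr4:123398307-123398336, plus strand, 61 bases before the start: tgccctccgcagCCGGAAgggggccgcggg
SPRY2, first start, chr13:80341251-80341280, minus strand, 136 bases before the start: tccctgcctcctCCGGAAaggcgagggcgc
The DUSP6 match reads on the opposite strand as TCAATGGA. The DUSP6 and SPRY1 windows also lie within exons of longer transcripts in GENCODE 29.

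Among the Sproutys, SPRY1 and SPRY4 were below the controls in all 3 UE7T-9 SHC4 libraries, and SPRY2 overlapped. SPRY4, an inhibitor of RAS activation by receptors (ENSG00000187678, chr5:142310427-142326455, minus strand), differed most. Its normalized count was 447, 653 and 660.1 in the controls, as against 436, 281 and 321 with SHC4. The groups did not overlap, but the replicate 1 libraries of both groups lay close to each other. The means were 587 ± 121 and 346 ± 80.6 (SD, n = 3 each), 58.9% of the control level. limma gave a log2 fold change of -0.76 (SE 0.21, 95% interval -1.24 to -0.29, adjusted p = 0.188). DESeq2 gave an adjusted p of 0.0486, just inside the threshold, and edgeR 0.179. Without UE7T-9 Cont replicate 1, limma gave -0.95 (adjusted p = 0.0227), and with any other library left out the adjusted p ranged from 0.113 to 0.588.

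SPRY1 (ENSG00000164056, chr4:123396795-123403760, plus strand), which acts at the same step, was the least abundant Sprouty of the group. It read 122, 167 and 184 in the controls, as against 85.2, 112 and 119 with SHC4. The highest SHC4 library was just below the lowest control. limma gave a log2 fold change of -0.57 (SE 0.23, 95% interval -1.09 to -0.050, adjusted p = 0.307), and DESeq2 did not call it (adjusted p = 0.24). The limma value was -0.74 without UE7T-9 Cont replicate 1 (adjusted p = 0.0854).

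SPRY2, which restrains receptor signaling to RAS and RAF, was the most abundant Sprouty (ENSG00000136158, chr13:80335976-80340951, minus strand). In normalized counts it stood at 824, 2473 and 1488 in the controls, as against 664, 1202 and 1552 with SHC4. UE7T-9 SHC4 replicates 2 and 3 lay inside the control range. The limma log2 fold change was -0.43 (SE 0.40, 95% interval -1.33 to 0.47, adjusted p = 0.664). Single libraries decided its size, as it was -0.84 without UE7T-9 Cont replicate 1 (limma adjusted p = 0.172) and -0.70 without UE7T-9 SHC4 replicate 3 (0.616), but -0.044 without UE7T-9 Cont replicate 2 (0.978) and -0.084 without UE7T-9 SHC4 replicate 1 (0.948). The stretch before its first start is printed whole, in lower case with the ETS core in capitals, because it lies outside the exons of the gene in GENCODE 29 (GRCh38.p14, chr13:80341127-80341376, minus strand, GC content 70.4%).
SPRY2 upstream stretch: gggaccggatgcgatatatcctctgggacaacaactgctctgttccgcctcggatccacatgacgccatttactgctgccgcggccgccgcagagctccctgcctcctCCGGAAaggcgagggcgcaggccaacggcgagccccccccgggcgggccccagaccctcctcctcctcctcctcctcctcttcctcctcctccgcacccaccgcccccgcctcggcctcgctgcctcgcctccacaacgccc

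The SPREDs varied little between libraries and differed by small amounts. SPRED2 (ENSG00000198369, chr2:65310851-65432637, minus strand) had a normalized count of 1541, 1610.5 and 1709.7 in the controls, as against 1367, 1290.2 and 1308 with SHC4. All UE7T-9 SHC4 libraries were below all controls, at 81.6% of the control mean. The change in limma was -0.29 on the log2 scale (SE 0.11, 95% interval -0.54 to -0.042, adjusted p = 0.284), and DESeq2 did not call it (adjusted p = 0.221). It was -0.33 without UE7T-9 Cont replicate 1 (limma adjusted p = 0.136). SPRED1 (ENSG00000166068, chr15:38252326-38357249, plus strand) read 1230.2, 1406 and 1560.2 in the controls, as against 1228, 1224 and 1360.1 with SHC4. Here UE7T-9 SHC4 replicate 3 lay within the control range, and the log2 fold change was -0.13 (SE 0.13, 95% interval -0.42 to 0.16, adjusted p = 0.678 from limma). For SPRED1, a decrease of more than 0.42 on the log2 scale is outside the interval with all libraries. The SPRED1 value was -0.22 without UE7T-9 Cont replicate 1 (limma adjusted p = 0.334) and -0.051 without UE7T-9 Cont replicate 3 (0.925).

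With all libraries, ETV4 had the largest log2 fold change of the 10 genes (without UE7T-9 Cont replicate 1, DUSP5 did), and that of its paralog ETV5 was small. ETV4 belongs to the PEA3 subfamily of ETS factors (ENSG00000175832, chr17:43527844-43579620, minus strand). It read 115, 137 and 136 in the controls, as against 61.5, 35.0 and 59.4 with SHC4. The groups were well apart, and all SHC4 libraries lay far below the lowest control. The means were 129 ± 12.2 and 52.0 ± 14.8 (SD, n = 3 each), 40.2% of the control level, from 42 to 138 reads per library. The limma log2 fold change was -1.34 (SE 0.27, 95% interval -1.95 to -0.73, adjusted p = 0.116), the smallest adjusted p of the group. DESeq2 gave -1.32 (SE 0.31, adjusted p = 0.00175) and edgeR an adjusted p of 0.13. Without UE7T-9 Cont replicate 1 limma called ETV4 (log2 fold change -1.42, adjusted p = 0.0285), and with any other library left out its adjusted p ranged from 0.0988 to 0.52.

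ETV5 (ENSG00000244405, chr3:186046308-186110318, minus strand) read 1583, 1599 and 1825 in the controls, as against 1474, 1401 and 1460.3 with SHC4. All UE7T-9 SHC4 libraries lay below all controls, at 86.6% of the control mean. The limma log2 fold change was -0.20 (SE 0.12, 95% interval -0.47 to 0.056, adjusted p = 0.454), and -0.24 without UE7T-9 Cont replicate 1 (adjusted p = 0.287). The intervals of ETV4 and ETV5 did not overlap, but the difference between their changes was not tested. ETV1, the third member of the PEA3 subfamily, was as abundant as ETV5 in reads, at 1617 ± 233 and 1471 ± 506 (SD, n = 3 each), with a log2 fold change of -0.20 (SE 0.25, adjusted p = 0.771 from limma).

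**Figure D2:**
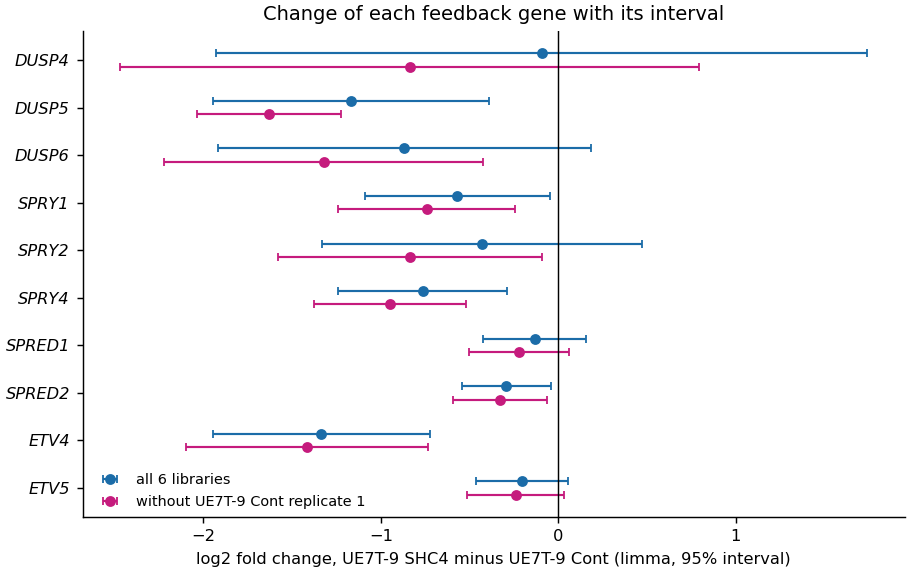
limma log2 fold change of each gene, UE7T-9 SHC4 minus UE7T-9 Cont, with its 95% interval, from all 6 libraries (blue) and without UE7T-9 Cont replicate 1 (magenta). With all 6 libraries the intervals of DUSP5, SPRY1, SPRY4, SPRED2 and ETV4 lie below 0; without that library those of DUSP6 and SPRY2 do as well.

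The feedback genes differed between libraries of the same group as well as between groups. UE7T-9 Cont replicate 1 was the lowest control for all 10 genes, whereas it was the lowest control for 38.8% of all genes tested. UE7T-9 SHC4 replicate 1 was below every control for all 10, against 26.2% of all genes. UE7T-9 SHC4 replicate 2 was below every control for 8 of the 10 (25.6% of all genes), and replicate 3 for 5 (25.5%). Leaving out UE7T-9 Cont replicate 1 moved the median log2 fold change of the 10 genes from -0.50 to -0.84, and DUSP5, SPRY4 and ETV4 were then called lower by limma (2.69% of all genes were). The direction of this move was fixed in advance, since that library was the lowest control for all 10 genes. Leaving out any other single library gave a median between -0.69 and -0.37 and no call.

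The spread inside a group differed among the 10 genes. DUSP4, DUSP6 and SPRY2 had coefficients of variation of 61.7%, 46.9% and 52.0% in UE7T-9 Cont and of 73.8%, 63.9% and 39.2% in UE7T-9 SHC4. DUSP5 varied by 46.2% among controls and 21.8% in UE7T-9 SHC4. SPRED1, SPRED2 and ETV5 varied by 5.23% to 11.8% in UE7T-9 Cont and by 2.68% to 6.11% in UE7T-9 SHC4. SPRY1 and SPRY4 lay between these, and ETV4 varied by 9.46% among controls and 28.4% with SHC4. The median over the 8458 genes with a mean in the range of the 10 was 13.5% and 11.2%. In DUSP4, DUSP6, SPRY1 and SPRY2, replicate 1 was the lowest library of both groups (UE7T-9 SHC4 replicate 1 was the lowest of its group for 35.8% of all genes). In SPRY4, SPRED2, ETV4 and ETV5 it was the lowest control but the highest UE7T-9 SHC4 library.

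**Figure D3:**
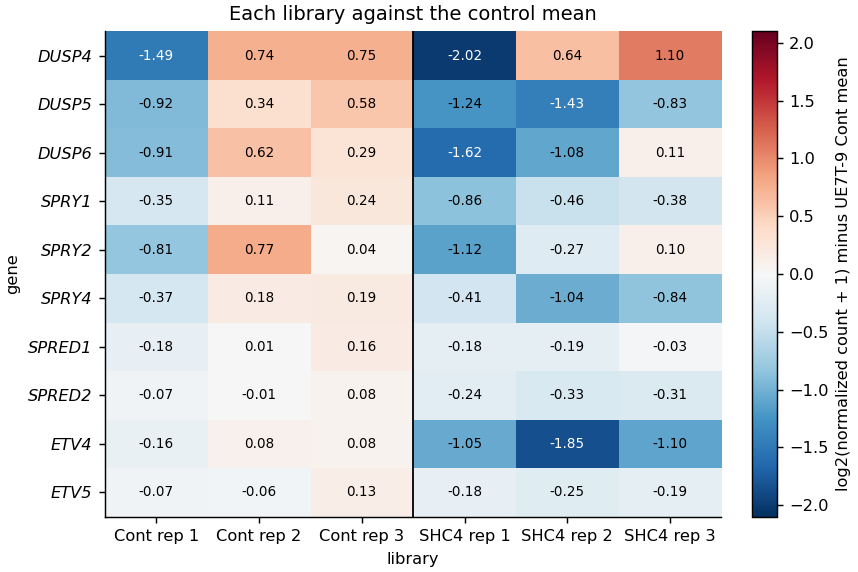
Difference of log2(normalized count + 1) between each library and the mean of the 3 UE7T-9 Cont libraries, for each of the 10 genes (blue is lower, red is higher). The column of UE7T-9 Cont replicate 1 is below 0 for every gene, and UE7T-9 SHC4 replicate 3 is above 0 for DUSP4, DUSP6 and SPRY2.

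Other genes also differed between these libraries. FOS, an immediate early gene that is induced within minutes of stimulation, was 1292, 4704 and 466 in the controls, as against 893, 1642 and 10032 with SHC4. It was highest in control replicate 2 and SHC4 replicate 3, the libraries of each group with the most DUSP6 and SPRY2. EGR1 was 4370, 9752 and 3245 in the controls, as against 2419, 2994 and 9258 with SHC4, with the same libraries on top. COL1A1, a chain of type I collagen, was 315042, 87857 and 67813 in the controls, as against 276719, 130035 and 122241 with SHC4, so it was highest in both replicate 1 libraries, where DUSP4, DUSP6 and SPRY2 were lowest. The part of these differences in the results on the feedback genes was not tested.

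Per kb of exon, DUSP5 had the highest mean of the 10 transcripts in UE7T-9 Cont and ETV4 the lowest. On this scale, the normalized count divided by the summed exon length of the gene in GENCODE 29, the level of DUSP5 was 804 ± 372 (SD, n = 3) in UE7T-9 Cont. SPRY2 (525 ± 273), DUSP6 (319 ± 150), SPRED2 (314 ± 16.4) and ETV5 (288 ± 23.3) followed, and each overlapped its neighbour in this order. SPRED1 (169 ± 19.99) was separate from ETV5 above it and from DUSP4 below it. DUSP4 (92.6 ± 57.1) and SPRY4 (89.4 ± 18.4) overlapped, as did SPRY1 (39.8 ± 8.11) and ETV4 (35.8 ± 3.38), and SPRY4 was separate from SPRY1. DUSP5 ranked first in each of the 3 control libraries. ETV4 was not last in each, as in UE7T-9 Cont replicate 1 it stood at 31.9, above SPRY1 (30.7) and DUSP4 (26.6).

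In UE7T-9 SHC4 the level per kb of SPRY2 (375 ± 147) was above that of DUSP5 (331 ± 72.1), but their libraries overlapped, and DUSP5 ranked first or second in every library. SPRED2 (256 ± 7.77) and ETV5 (249 ± 6.69) came next by their means, followed by DUSP6 (182 ± 116), SPRED1 (154 ± 9.40) and DUSP4 (98.5 ± 72.7). From SPRED2 to SPRY4 each gene overlapped the next in this order, and in replicate 3 DUSP6 was above SPRED2 and ETV5. SPRY4 (52.7 ± 12.3), SPRY1 (26.6 ± 4.49) and ETV4 (14.4 ± 4.09) were each separate from the next, and ETV4 ranked last in all 3 libraries.

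**Figure D4:**
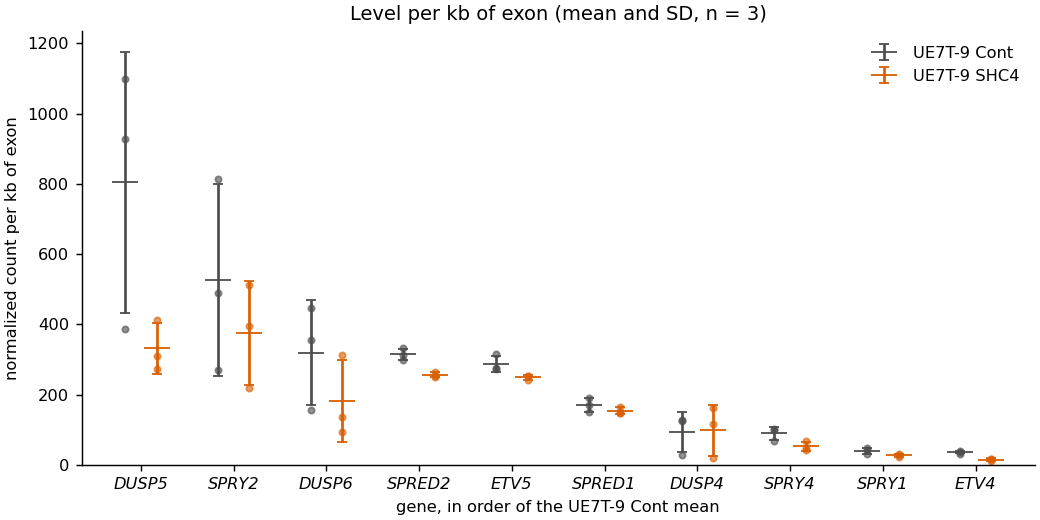
Normalized count per kb of exon in UE7T-9 Cont (grey) and UE7T-9 SHC4 (orange), with the mean, SD (n = 3) and each library as a point, ordered by the control mean. By the mean, DUSP5 leads in UE7T-9 Cont at 804 and ETV4 is last in both groups, at 35.8 and 14.4.

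Some of the genes share exon bases with a neighbour. The library kit named in the labels is not described there as strand-specific, and the strand setting of the count is not given. How reads over the shared bases entered the values was not tested. DUSP6 shares 1875 exon bases (40.5% of its exons) with AC024909.2 on the opposite strand, which had 7.03 to 20.7 normalized counts per library. ETV4 shares 68 bases with DHX8 on the opposite strand, which was at 1203 to 1458. ETV5 shares 164 bases with DGKG on the same strand, which read 92.6, 158 and 266 in the controls, as against 80.0, 69.9 and 62.9 with SHC4. The antisense genes SPRY4-AS1 and ETV5-AS1 overlap the span of their partners but share no exon base with them, and they were at 11.6 to 24.7 and 0.975 to 7.49.

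Other brakes of the pathway showed no common direction. Of 21 further feedback and inhibitor genes, 20 were tested, with a positive log2 fold change in 11, a negative one in 9 and a median log2 fold change of 0.042. limma called none of them. At an unadjusted p below 0.05, 2 were higher (7.47% of all genes) and 4 lower (6.96%). DESeq2 called 1 higher and 1 lower, against 2.06% and 2.08% of the genes to which it gave an adjusted p. The lower one was SPRED3, the third SPRED, with a normalized count of 316, 411 and 545 in the controls, as against 272, 225 and 246 with SHC4. All its UE7T-9 SHC4 libraries lay below the controls (log2 fold change -0.74, SE 0.20, limma adjusted p = 0.188, DESeq2 adjusted p = 0.0412). The higher one was DAB2IP, a RAS GTPase-activating protein, at 1660.1, 1251 and 1017 against 1920.3, 2321 and 2472 (log2 fold change 0.79, SE 0.19, limma adjusted p = 0.155, DESeq2 adjusted p = 0.0176). Without UE7T-9 Cont replicate 1, limma called 3 of these genes higher, DAB2IP, IL17RD and LRIG1, and 1 lower, SPRED3 (2.99% of all genes were called higher and 2.69% lower there). LRIG1 was chosen after its values were seen. SPRY3, the fourth Sprouty, was scarce and overlapped between groups (69.2 ± 28.1 and 52.0 ± 9.25, SD, n = 3 each). DUSP9 was not tested, since its mean was below 1. IL17RD, a membrane inhibitor of the pathway also known as Sef, was chosen after its values were seen. It was 110, 75.3 and 43.3 in the controls, as against 120, 183 and 184 with SHC4, higher in every UE7T-9 SHC4 library than in every control (log2 fold change 1.15, SE 0.34, limma adjusted p = 0.201, DESeq2 adjusted p = 0.059). Its log2 fold change without UE7T-9 Cont replicate 1 was 1.46 (limma adjusted p = 0.0255).

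Other transcripts that ERK induces were split in sign, and the 4 that DESeq2 called were all lower. Of 19 such genes outside the group, 8 were higher and 11 lower, with a median log2 fold change of -0.16. limma called none. At an unadjusted p below 0.05, 4 were lower (6.96% of all genes) and none was higher (7.47%). DESeq2 called 4 lower, HBEGF, IER3, PLAUR and EPHA2, and none higher. Of all genes to which it gave an adjusted p, it called 2.08% lower and 2.06% higher. HBEGF, a ligand of the EGF receptor, was 277, 839 and 1233 in the controls, as against 136, 71.6 and 118 with SHC4, with no overlap (log2 fold change -2.64, SE 0.48, limma adjusted p = 0.1, DESeq2 adjusted p = 1.5e-07). IER3, an early response gene, went from 2052 ± 557 to 944 ± 357 (SD, n = 3 each), with a log2 fold change of -1.15 (limma adjusted p = 0.156, DESeq2 adjusted p = 0.00856). PLAUR, the urokinase receptor, went from 2898 ± 716 to 1625 ± 141, with a log2 fold change of -0.80 (limma adjusted p = 0.155, DESeq2 adjusted p = 0.00721). EPHA2, an ephrin receptor, had a log2 fold change of -0.80 and overlapped between groups (limma adjusted p = 0.22, DESeq2 adjusted p = 0.0426). Without UE7T-9 Cont replicate 1, limma called these 4 and also LIF and EREG lower, both chosen after their values were seen, and none higher. In that setting, limma called 2.69% of all genes lower and 2.99% higher.

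The genes of the pathway itself had no common direction. Of 24 adaptor, RAS, RAF, MEK and ERK genes, 13 were higher and 11 lower, and the median was 0.025. Neither limma nor DESeq2 called any. At an unadjusted p below 0.05, 1 was higher (7.47% of all genes) and 1 lower (6.96%). The smallest limma p-values were those of RRAS (log2 fold change 0.60, adjusted p = 0.194), RRAS2 (-0.62, adjusted p = 0.216) and NRAS (-0.25, adjusted p = 0.352), 3 small GTPases of the RAS family. Without UE7T-9 Cont replicate 1, limma called RRAS higher and RRAS2 lower (2.99% of all genes were called higher and 2.69% lower there). Of 15 other ETS factors and capicua genes, 9 were higher and 6 lower, with a median of 0.031. None was called by limma or DESeq2, and none had an unadjusted limma p below 0.05. The 3 with the smallest p were ETS2 (log2 fold change -0.53, limma adjusted p = 0.401), CIC (0.29, limma adjusted p = 0.424) and FLI1 (0.24, limma adjusted p = 0.504). CIC encodes capicua, the repressor of ETV4 and ETV5, and read 4630.2, 4189.9 and 3459 in the controls, as against 4502, 5455 and 4944 with SHC4. The groups overlapped through the replicate 1 libraries.

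**Figure D5:**
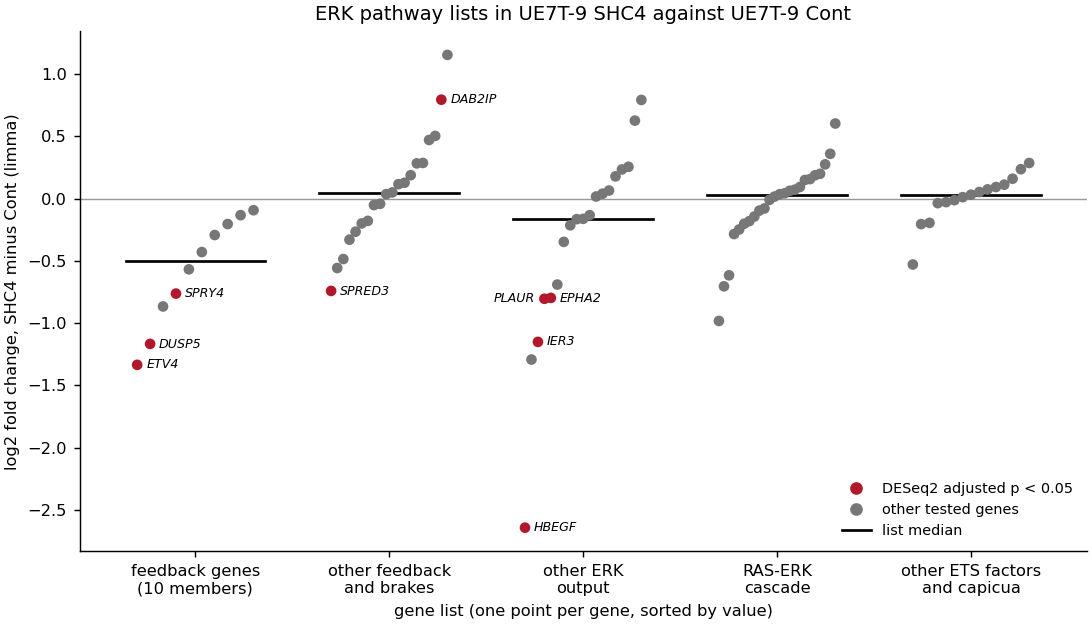
limma log2 fold change of each gene in 5 lists, UE7T-9 SHC4 minus UE7T-9 Cont, with the list median as a bar and genes with a DESeq2 adjusted p below 0.05 in red. The 10 feedback genes have a median of -0.50, the other ERK output genes of -0.16, and the other lists medians of 0.025 to 0.042.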

How the data were processed

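RNA was sequenced by Novogene on a NovaSeq system for 3 samples of each group, and samples were grouped by their titles. The signal deposited by the authors is each gene's read count after division by the DESeq2 size factor of its library. The submitters' processing notes name HISAT2 2.0.5, featureCounts 1.5.0-p3 and DESeq2; the genome build, annotation and strand setting are not given in the sources used here. All values (100%, tolerance 0.01 reads) were whole multiples of the value of 1 read, so reads were recovered by division, and 1 read was worth a normalized count of 0.832 to 1.18. Symbols were found for all 28181 identifiers, and positions and exon lengths were taken by identifier from GENCODE 29 (GRCh38).

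The test was limma 3.58.1 (lmFit, then eBayes with an intensity trend; R 4.3.3), applied to log2(normalized count + 1) of the 23040 genes whose mean reached 1. The other 5141 genes were left out. p-values were two-sided and adjusted by Benjamini-Hochberg over all genes, with a threshold of 0.05. Alternatives were DESeq2 1.42.0 and edgeR 4.0.16 (quasi-likelihood, TMM) on recovered reads, 2 other scalings, 2 other filters, pseudocounts of 0.1 and 10, a replicate block, a log2 fold change threshold of 1, and each library left out. Tests were checked on simulated counts.

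The 10 genes and all lists were chosen with earlier results of these data known. Named were the 10 genes, SHC4, paralogs missing from the group, overlapping genes, and genes of the other lists called by limma or DESeq2 or, where there were none, the 3 with the smallest p; marker lists of other cell types are given by their summed level instead. FOS, EGR1, COL1A1, COL1A2, IL17RD, LRIG1, LIF, EREG, PTPRC and EPCAM were also named, after their values were seen. So were the markers THY1, VCAM1, NT5E, HLA-DRA, CD14, CD34, ITGAM, CDH1 and KRT14. Some listed markers were not analysed here.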

Additional observations from a re-analysis of the deposited data

How the results depend on the processing

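All 10 feedback genes were lower with limma under both other scalings, both other filters, both other pseudocounts and the replicate block, and 9 of 10 were lower with DESeq2, with edgeR and without UE7T-9 Cont replicate 2, UE7T-9 Cont replicate 3, UE7T-9 SHC4 replicate 1 or both replicate 1 libraries. The exception was DUSP4, whose log2 fold change turned to 0.089 in DESeq2, 0.088 in edgeR and 0.12 without both replicate 1 libraries, and ranged from -0.84 to 0.87 with single libraries left out. Library size scaling shifted the median of all genes to -0.10, and the median of the 10 genes was -0.60 there. The number of the 10 genes called was 3 in DESeq2, 0 to 3 with single libraries left out and 3 without both replicate 1 libraries, a setting added after the data were seen. Over all genes, limma called 13 higher and 2 lower. DESeq2 called 333 and 336, edgeR 10 and 1, library size scaling 22 and 6, TMM normalization 21 and 4, no filter 33 and 10, and pseudocounts of 0.1 and 10 each 12 and 1. The counts ranged from 1 to 690 higher and 0 to 621 lower with single libraries left out, and were 1216 and 1001 without both replicate 1 libraries. The cause was not tested.

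A replicate block in limma gave 28 higher and 19 lower calls, none of them among the 10. The block lowered the adjusted p of DUSP5 to 0.0971 and of ETV4 to 0.0902. As a check of the pairing, the distance of each library from its group mean was correlated between libraries with the same number, which gave 0.148, 0.013 and -0.0070 over the genes tested and 0.409, 0.146 and 0.149 over 12678 genes whose mean reached 50. Over the genes tested, not all pairs were above 0.1, so the libraries were taken to share only a number. Over the 12678 genes all pairs were, although UE7T-9 Cont replicate 2 correlated best with UE7T-9 SHC4 replicate 3 (0.517). The feedback genes had at least 42 reads in every library.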
